A study of Homo sapiens with 8 samples.

Results

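The genes described here are 46 genes of mitosis and the mitotic spindle, named by symbol and sorted by role from what is known of them; the choice was made with earlier results of these data known. They were 46 of the 19775 genes that at least 1 probe set of the array measured without naming another gene, and each gene was read from its probe set with the highest mean over the 8 arrays. The arrays hold human PC3 prostate cancer cells in an epithelial state, in a mesenchymal state after an epithelial-to-mesenchymal transition (EMT), and after a knockdown of ZEB1, a transcription factor that drives the transition. The EMT group was PC3-EMT1, PC3-EMT12 and PC3-EMT14 (1 array each), mesenchymal populations isolated after PC3-Epi cells had been grown together with human macrophages, and it was set against PC3-Epi (1 array), an epithelial population of luciferase-expressing PC3 cells. The sh4 group was PC3-EMT1 and PC3-EMT14 carrying a lentiviral shRNA against ZEB1 (2 arrays), and it was set against Scr, the same lines carrying a scrambled shRNA (2 arrays); the labels call the sh4 cells epithelial and the Scr cells mesenchymal. All 8 cultures descend from PC3-Epi and therefore carry the luciferase vector, and all were grown in medium with 5% serum and plated 2 days before their RNA was extracted. The EMT populations are isolates of 1 parent, PC3-Epi was measured on a lone array, and the knockdown rests on 1 shRNA, so that a p-value here reflects no more than how these lines and arrays vary, technically or otherwise.

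Cells enter mitosis when CDK1 is switched on by its B-type cyclins, and kinesin motors and microtubule-binding proteins then build the spindle that pulls the chromosomes apart. The spindle checkpoint holds back the anaphase-promoting complex until kinetochores, the attachment sites on the chromosomes, are joined to microtubules, and cytokinesis then divides the cell. The transcripts of these genes accumulate late in the cell cycle, under MuvB, B-MYB and FOXM1 complexes and the factor NF-Y, and are widely read as proliferation markers in tumours, prostate cancer included.

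Most of these genes share promoter letters, which their choice did not use, and 4 promoters are shown to make that visible. The letters were picked because late cell cycle genes are known to share them, so a high share here is not a separate result. RefSeq (GRCh38.p14) gave a promoter, 250 bases before to 50 bases after the start, for 38 of the 46 genes; RACGAP1, TTK, BUB3, TPX2, FOXM1, AURKA, BIRC5 and UBE2C were not matched. TTTGAA or TTTAAA, the letters of the cell cycle genes homology region (CHR), were found on either strand in 33 of the 38 genes (86.8%), against 27.9% of 27305 genes with a promoter in the same table. CCAAT, the box that NF-Y binds, was found on either strand in 30 of the 38 (78.9%), against 39.7% of all, and 26 genes (68.4%) held both, against 11.2% of all. TTTGAA was in 28 genes (73.7%, against 18.2% of all) and TTTAAA in 14 (36.8%, against 14.5% of all). Among these 38 genes, 24 were called lower in the EMT lines in the comparison with PC3-Epi; 20 of them held a CHR match and 17 a CCAAT box, while of the 14 not called 13 held a CHR match and 13 a CCAAT box. The promoters below belong to the 2 genes with the largest falls in the EMT lines (KIF15 and KIF14) and the 2 genes whose difference lay nearest 0 (CDCA8 and CDCA3), among genes with 1 listed promoter. They run from 5′ to 3′ on the gene's own strand in lower case, with each CHR match and each CCAAT box in capitals, on whichever strand it was found, and in CDCA8 a CHR match and a CCAAT box overlap.
KIF15 (chr3:44761544-44761843, + strand): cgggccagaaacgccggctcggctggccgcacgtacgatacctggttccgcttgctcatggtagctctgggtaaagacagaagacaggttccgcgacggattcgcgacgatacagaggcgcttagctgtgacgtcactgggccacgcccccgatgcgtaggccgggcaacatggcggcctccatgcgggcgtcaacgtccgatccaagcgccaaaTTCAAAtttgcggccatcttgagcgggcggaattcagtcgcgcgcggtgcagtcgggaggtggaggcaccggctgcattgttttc
KIF14 (chr1:200620702-200621001, - strand): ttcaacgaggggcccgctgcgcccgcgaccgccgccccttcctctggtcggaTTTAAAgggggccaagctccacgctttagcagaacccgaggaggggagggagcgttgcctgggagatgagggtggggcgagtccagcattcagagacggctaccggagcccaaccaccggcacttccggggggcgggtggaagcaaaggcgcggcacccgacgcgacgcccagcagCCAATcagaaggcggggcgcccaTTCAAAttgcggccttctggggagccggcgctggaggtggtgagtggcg
CDCA8 (chr1:37692266-37692565, + strand): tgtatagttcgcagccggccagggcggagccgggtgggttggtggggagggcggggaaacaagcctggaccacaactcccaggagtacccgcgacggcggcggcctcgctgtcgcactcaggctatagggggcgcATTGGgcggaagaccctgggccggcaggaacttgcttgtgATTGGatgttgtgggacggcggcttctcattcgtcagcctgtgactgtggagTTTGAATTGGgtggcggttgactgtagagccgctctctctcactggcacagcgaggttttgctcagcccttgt
CDCA3 (chr12:6851237-6851536, - strand): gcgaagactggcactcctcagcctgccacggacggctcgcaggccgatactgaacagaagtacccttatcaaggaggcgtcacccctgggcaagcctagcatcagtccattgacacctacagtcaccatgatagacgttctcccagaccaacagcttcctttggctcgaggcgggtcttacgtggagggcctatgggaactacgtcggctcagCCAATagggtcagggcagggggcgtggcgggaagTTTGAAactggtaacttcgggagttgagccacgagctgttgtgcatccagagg
All 4 hold TTTGAA or its reverse complement, KIF14 holds TTTAAA as well, and CCAAT was found in each of them except KIF15. A match of letters describes the sequence and is not a measured binding site.

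The values are log2 expression values on the scale of robust multi-array average (RMA), so that a difference of 1 is 2-fold. The 4 untransduced arrays had medians of 4.33 to 4.35 and the 4 transduced arrays 6.19 to 6.23, so the sets had been scaled apart and levels were compared only within a set. All 46 genes lay above the highest bacterial control probe set on each array (4.43 to 4.56 untransduced, 5.85 to 6.00 transduced), from a lowest value of 6.15 in the untransduced set and 6.85 in the transduced set, and all 46 passed the filter in both. ZEB1 itself was 6.81, 7.12 and 6.50 in the EMT lines, against 3.08 in PC3-Epi, and 9.12 and 9.01 in the sh4 cells, against 9.87 and 10.08 in the Scr cells. The 6 epithelial markers, CDH1 among them, were lower and the 3 mesenchymal markers, VIM among them, were higher in the EMT lines than in PC3-Epi (limma). Of 10 macrophage markers on the array, LAPTM5 alone lay above the bacterial controls in the untransduced set. On each transduced array 4 did so, CSF1R, ITGAM, AIF1 and LAPTM5. CD14, CD163, PTPRC, LYZ, MRC1 and TYROBP did so on no array. The summed linear level of the 10 markers was 144 to 150 in the EMT lines, against 135 in PC3-Epi. It was 522 to 536 in the sh4 cells, against 498 to 537 in the Scr cells. The PC3-EMT14-Scr array stood apart: it was the lowest of the 4 transduced arrays in all 46 genes, where it was the lowest for 33.2% of all genes, so the knockdown is given below for each line as well.

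**Figure D1:**
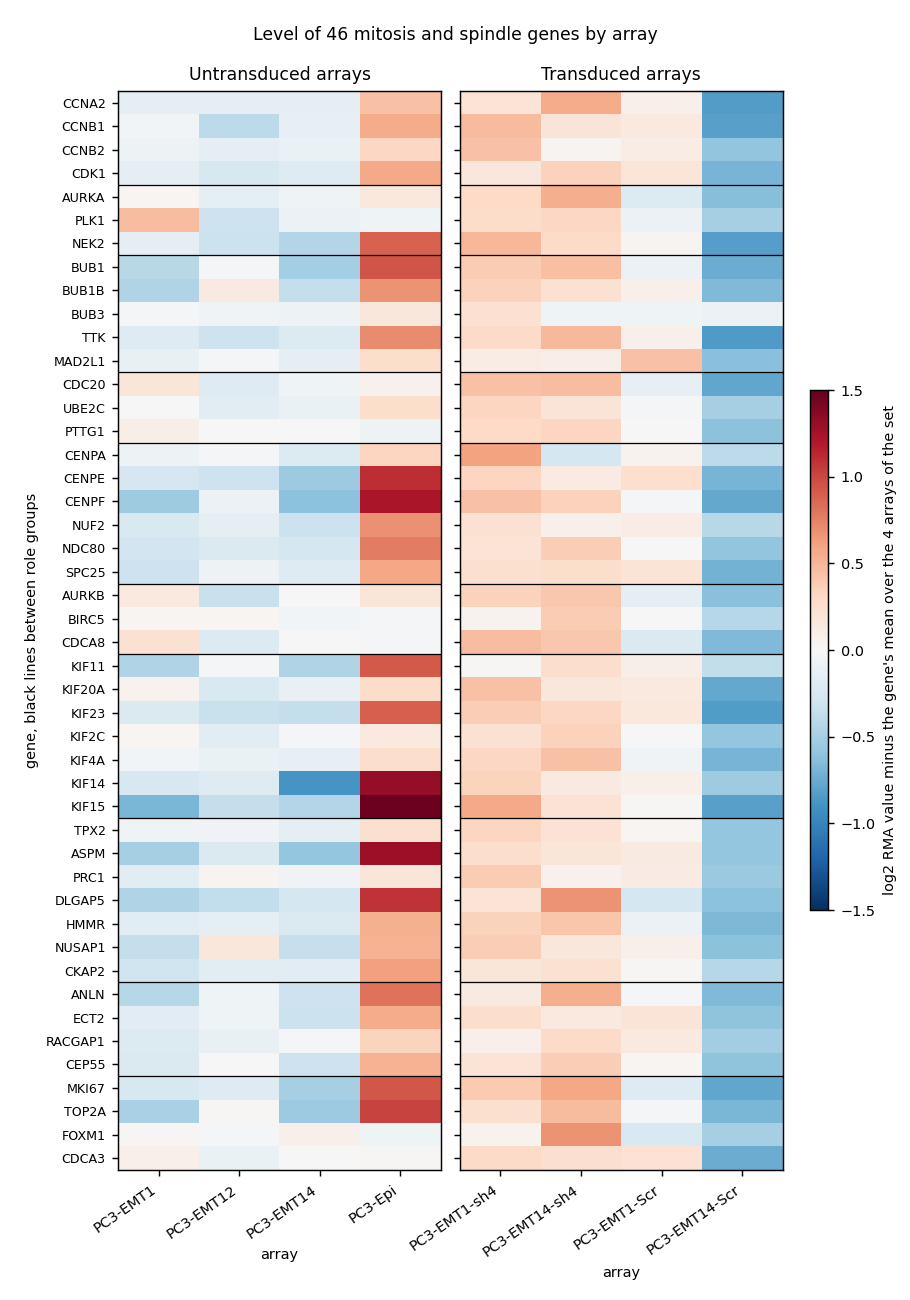
Level of the 46 mitosis and spindle genes on each array, as the log2 RMA value minus the gene's mean over the 4 arrays of its set (colour scale), with genes in rows grouped by role and arrays in columns. PC3-Epi is the highest untransduced column for 39 genes, and PC3-EMT14-Scr is the lowest transduced column for all 46 genes.

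The EMT lines were set against PC3-Epi to ask which of these transcripts differ after the transition. Of the 46 genes, 25 were lower in the EMT lines and 0 were higher at an adjusted p under 0.05 (limma), while 15.4% of the 11921 genes tested were lower and 13.9% were higher; at an unadjusted p under 0.05, 31 of the 46 were lower and 0 were higher, where 21.8% of all genes were lower and 22.9% higher. The median difference over the 46 genes was -0.71, against 0.07 over all genes tested. The largest falls were in KIF15, KIF14, ASPM, CENPF and CENPE, which lay 2.77-fold to 3.91-fold lower in the EMT lines. In bulk RNA, fewer cells in mitosis and less RNA of these genes per cell cannot be told apart. With PC3-Epi on 1 array, a difference of the EMT state and a property of that PC3-Epi culture or array cannot be told apart either. Taken line by line, 39 genes were lower in all 3 EMT lines, where 36.7% of all genes were, and 9 genes (NEK2, CENPE, CENPF, KIF23, KIF14, KIF15, ASPM, DLGAP5 and MKI67) were 2-fold or more lower in all 3, where 4.9% of all genes were. Medians over the 46 genes were -0.71 in PC3-EMT1, -0.57 in PC3-EMT12 and -0.76 in PC3-EMT14, with 15, 10 and 16 genes 2-fold or more lower in these lines, where 9.08%, 6.19% and 8.48% of all genes were. Differences below are EMT minus PC3-Epi on the log2 scale with the standard error from limma, and the 3 EMT values run in the order PC3-EMT1, PC3-EMT12, PC3-EMT14.

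The cyclins and CDK1 had 3 of 4 genes lower. CDK1, the kinase whose activity defines mitosis, was 11.24, 11.13 and 11.18 in the EMT lines, against 11.95 in PC3-Epi, and fell by 0.76 ± 0.14 (adjusted p = 0.0146). CCNB1, its main mitotic cyclin, was 10.64, 10.29 and 10.55 in the EMT lines, against 11.23 in PC3-Epi, and fell by 0.74 ± 0.18 (adjusted p = 0.0326). CCNA2, the cyclin of S phase and mitotic entry, was 8.41, 8.42 and 8.41 in the EMT lines, against 9.00 in PC3-Epi, and fell by 0.59 ± 0.14 (adjusted p = 0.0265). The 3 EMT lines lay below PC3-Epi in each of these genes, and in CCNA2 they were nearly equal to one another. CCNB2, the other B-type cyclin, had a difference of -0.42 ± 0.14 (adjusted p = 0.0673) that did not pass.

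Of the mitotic kinases, 1 of 3 was lower. NEK2, which separates the centrosomes, was 8.59, 8.39 and 8.28 in the EMT lines, against 9.60 in PC3-Epi, and fell by 1.18 ± 0.17 (adjusted p = 0.00764). AURKA, which matures centrosomes and spindle poles, was 11.75, 11.59 and 11.66 in the EMT lines, against 11.88 in PC3-Epi, a difference of -0.22 ± 0.15 (adjusted p = 0.292) that did not pass. PLK1, the master kinase of mitotic progression, had a difference of 0.08 ± 0.30 (adjusted p = 0.847), and its lines did not move together: PC3-EMT1 was 0.52 above PC3-Epi while PC3-EMT12 was 0.25 below it.

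The spindle checkpoint had 3 of 5 genes lower, all of them protein kinases or kinase-like proteins. BUB1, which recruits checkpoint proteins to kinetochores, was 7.93, 8.33 and 7.84 in the EMT lines, against 9.28 in PC3-Epi, and fell by 1.25 ± 0.22 (adjusted p = 0.0133). BUB1B, whose protein BUBR1 inhibits the anaphase-promoting complex, was 9.72, 10.30 and 9.81 in the EMT lines, against 10.85 in PC3-Epi, and fell by 0.90 ± 0.25 (adjusted p = 0.0436). TTK, also known as MPS1, which starts checkpoint signalling, was 7.60, 7.49 and 7.59 in the EMT lines, against 8.51 in PC3-Epi, and fell by 0.95 ± 0.14 (adjusted p = 0.00845). PC3-EMT12 was the highest EMT line in BUB1 and BUB1B but the lowest in TTK, and no EMT line reached PC3-Epi in any of them. MAD2L1 and BUB3, the checkpoint proteins without kinase domains, had differences of -0.34 and -0.22 that did not pass.

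None of the 3 genes that act on or within the anaphase-promoting pathway passed, though UBE2C lay below PC3-Epi in each EMT line. UBE2C, the ubiquitin-conjugating enzyme of the complex, was 12.06, 11.90 and 11.95 in the EMT lines, against 12.33 in PC3-Epi, a difference of -0.36 ± 0.15 (adjusted p = 0.112). PTTG1, the securin that the complex destroys, was 12.38, 12.29 and 12.30 in the EMT lines, against 12.23 in PC3-Epi, a difference of 0.10 ± 0.14 (adjusted p = 0.614), with PC3-Epi the lowest of the 4 arrays. CDC20, which activates the complex, had a difference of -0.09 ± 0.19 (adjusted p = 0.737).

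The centromere and kinetochore group had 5 of 6 genes lower, the highest share of any group. CENPF, a large kinetochore and nuclear matrix protein, was 7.60, 8.05 and 7.52 in the EMT lines, against 9.36 in PC3-Epi, and fell by 1.64 ± 0.23 (adjusted p = 0.00754). CENPE, the kinetochore motor that brings chromosomes to the spindle equator, was 7.06, 7.00 and 6.76 in the EMT lines, against 8.41 in PC3-Epi, and fell by 1.47 ± 0.17 (adjusted p = 0.00415). Both were lower than PC3-Epi in each EMT line by more than the EMT lines differed from one another. The other 3 that fell are subunits of the NDC80 complex, which grips the microtubule end. NDC80 was 8.15, 8.22 and 8.17 in the EMT lines, against 9.20 in PC3-Epi, and fell by 1.02 ± 0.14 (adjusted p = 0.00625). NUF2 was 7.69, 7.79 and 7.60 in the EMT lines, against 8.60 in PC3-Epi, and fell by 0.91 ± 0.15 (adjusted p = 0.011). SPC25 was 7.16, 7.40 and 7.28 in the EMT lines, against 8.05 in PC3-Epi, and fell by 0.77 ± 0.16 (adjusted p = 0.0188). These subunits fell by like amounts, between 0.77 and 1.02. CENPA, the histone that marks the centromere, had a difference of -0.42 ± 0.15 (adjusted p = 0.0795) that did not pass.

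The chromosomal passenger complex, which corrects wrong attachments and directs cytokinesis, had 0 of 3 genes that passed, though AURKB lay below PC3-Epi in each EMT line. AURKB, its kinase, was 8.75, 8.27 and 8.61 in the EMT lines, against 8.79 in PC3-Epi, a difference of -0.25 ± 0.22 (adjusted p = 0.402). BIRC5, or survivin, was 12.15, 12.15 and 12.09 in the EMT lines, against 12.10 in PC3-Epi, a difference of 0.03 ± 0.14 (adjusted p = 0.895). In this probe set of BIRC5 the lines lay 0.05, 0.05 and -0.02 from PC3-Epi, but 2 other probe sets of the gene lay above PC3-Epi in all 3 lines, with mean differences of 0.56 and 0.70, so the probe sets of BIRC5 disagree. CDCA8, or borealin, had a difference of 0.02 ± 0.20 (adjusted p = 0.95).

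Kinesin motors had 4 of 7 genes lower and included the largest falls of all. KIF15, which keeps spindle poles apart together with KIF11, was 6.34, 6.67 and 6.58 in the EMT lines, against 8.50 in PC3-Epi, and fell by 1.97 ± 0.18 (adjusted p = 0.00192), or 3.91-fold. KIF14, a motor of the midzone and midbody, was 7.29, 7.33 and 6.65 in the EMT lines, against 8.84 in PC3-Epi, and fell by 1.75 ± 0.29 (adjusted p = 0.0113), or 3.37-fold. The line differences of KIF15 ran from -2.16 to -1.83, while KIF14 was lower in PC3-EMT14 than in the other EMT lines. KIF11, the motor that pushes the poles apart, was 6.82, 7.26 and 6.82 in the EMT lines, against 8.20 in PC3-Epi, and fell by 1.23 ± 0.22 (adjusted p = 0.0132). KIF23, the motor of the centralspindlin complex, was 6.78, 6.67 and 6.64 in the EMT lines, against 7.90 in PC3-Epi, and fell by 1.20 ± 0.14 (adjusted p = 0.00451). KIF20A, KIF4A and KIF2C, of which KIF20A and KIF4A work at the midzone and KIF2C shortens microtubules, had differences from -0.36 to -0.19 that did not pass.

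Among proteins of spindle assembly and microtubule binding, 4 of 7 genes were lower. ASPM, which sits at spindle poles, was 6.23, 6.51 and 6.15 in the EMT lines, against 8.01 in PC3-Epi, and fell by 1.72 ± 0.19 (adjusted p = 0.00342), or 3.29-fold. DLGAP5, or HURP, which stabilises kinetochore fibres, was 8.56, 8.65 and 8.75 in the EMT lines, against 10.10 in PC3-Epi, and fell by 1.45 ± 0.15 (adjusted p = 0.00293). Both were 2-fold or more lower in every EMT line. CKAP2 was 7.96, 8.10 and 8.10 in the EMT lines, against 8.87 in PC3-Epi, and fell by 0.82 ± 0.15 (adjusted p = 0.0137). HMMR, a hyaluronan receptor that also binds spindle microtubules, was 8.99, 9.02 and 8.95 in the EMT lines, against 9.70 in PC3-Epi, and fell by 0.71 ± 0.14 (adjusted p = 0.0166). The EMT lines lay close together and below PC3-Epi in both genes. NUSAP1, a microtubule bundling protein, had as large a difference, -0.70 ± 0.24 (adjusted p = 0.0784), that did not pass: PC3-EMT12 was 0.35 below PC3-Epi, against 0.88 in PC3-EMT1 and 0.87 in PC3-EMT14. TPX2, which nucleates spindle microtubules, and PRC1, which bundles them in anaphase, had differences of -0.31 and -0.25 that did not pass.

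Cytokinesis genes had 3 of 4 lower. ANLN, the scaffold anillin of the contractile ring, was 8.61, 8.97 and 8.73 in the EMT lines, against 9.85 in PC3-Epi, and fell by 1.08 ± 0.18 (adjusted p = 0.0123). ECT2, which activates RHOA at the cleavage site, was 9.26, 9.37 and 9.11 in the EMT lines, against 9.99 in PC3-Epi, and fell by 0.74 ± 0.16 (adjusted p = 0.0229). CEP55, which brings the abscission machinery to the midbody, was 8.65, 8.87 and 8.56 in the EMT lines, against 9.40 in PC3-Epi, and fell by 0.70 ± 0.17 (adjusted p = 0.0313). In each of them the 3 EMT values lay below PC3-Epi and did not overlap it. RACGAP1, the partner of KIF23 in centralspindlin, had a difference of -0.44 ± 0.15 (adjusted p = 0.0706) that did not pass.

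Of the remaining 4 genes, which act on chromosomes or on transcription, 2 were lower. TOP2A, which untangles sister chromatids, was 8.78, 9.28 and 8.71 in the EMT lines, against 10.28 in PC3-Epi, and fell by 1.35 ± 0.25 (adjusted p = 0.015). MKI67, which coats mitotic chromosomes and gives the Ki-67 proliferation index, was 9.10, 9.16 and 8.85 in the EMT lines, against 10.27 in PC3-Epi, and fell by 1.24 ± 0.18 (adjusted p = 0.00733). FOXM1, a transcription factor of the late cell cycle, had a difference of 0.09 ± 0.14 (adjusted p = 0.661), with PC3-Epi the lowest of the 4 arrays. CDCA3, which promotes the degradation of the mitotic inhibitor WEE1, had a difference of -0.02 ± 0.15 (adjusted p = 0.914). Without the PC3-EMT14 array, 17 of the 46 genes were lower, and CCNA2, CCNB1, CDK1, BUB1B, SPC25, HMMR, ECT2 and CEP55 no longer passed, though all 8 kept their direction. Over the whole array 1109 of 11850 genes were lower in that run, against 1835 of 11921 with all lines. The difference between 3′ and 5′ probe sets of ACTB, a measure of RNA quality, was 1.29, 1.62 and 1.27 in the EMT lines, against 1.63 in PC3-Epi. That of GAPDH was -0.12, -0.18 and -0.21, against -0.28, so PC3-Epi was the highest array in ACTB and the lowest in GAPDH. Their part in the EMT differences was not tested.

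**Figure D2:**
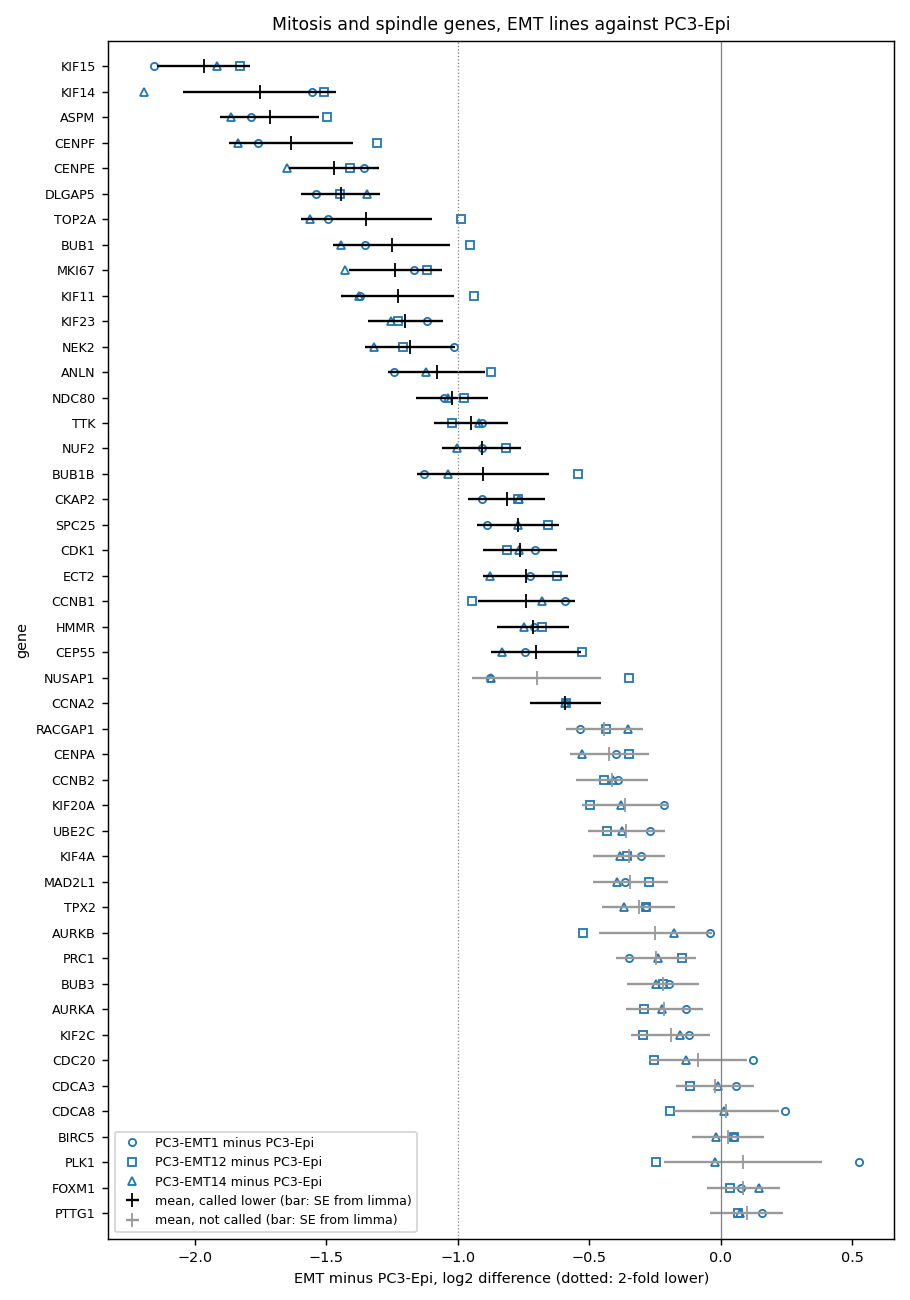
Log2 difference of each EMT line from PC3-Epi for the 46 genes (circles PC3-EMT1, squares PC3-EMT12, triangles PC3-EMT14), sorted by their mean, with crosses for the mean and bars for the standard error from limma. KIF15 is at the low end with a mean of -1.97, the 25 genes called lower are drawn in black, and the 5 genes with a mean above 0 lie between 0.02 and 0.10.

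Most other probe sets of these genes had the same sign as the one used. Of 45 further probe sets, 31 in 21 genes passed the filter in the untransduced arrays, and 29 of these had the same sign. All 18 that belong to genes called lower were lower in all 3 EMT lines, by more or by less than the probe set used. CENPF averaged -1.79 in its other probe set past the filter, against -1.64 in the one used, and NEK2 -1.30, against -1.18. A further probe set of MKI67 averaged -0.72, against -1.24, and a further one of ASPM -0.93, against -1.72. The 2 of opposite sign belong to AURKB (0.09, against -0.25 in the probe set used) and CDCA3 (0.12, against -0.02), neither of which was called.

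The difference was also set against the genomic span of the gene (RefSeq GRCh38.p14), a property looked at after the values had been seen. Spearman's rho over the 46 genes was -0.65, against -0.23 over 11867 other genes. Of the 15 genes with the shortest spans (4.22 to 17.2 kb) 3 were lower with a median of -0.25, of the 16 middle ones (17.4 to 40.5 kb) 11 with a median of -0.79, and of the 15 longest (43.5 to 131 kb) 11 with a median of -1.08. Other genes of the same 3 ranges had medians of 0.21, 0.07 and -0.13, and 7.80%, 14.4% and 22.1% of them were lower. CDC20 and UBE2C, with spans of 4.22 and 4.31 kb, had differences of -0.09 and -0.36, while KIF15, with a span of 107 kb, had -1.97. KIF4A (131 kb, -0.35) and TPX2 (62.5 kb, -0.31) had long spans but fell less than the median of the 15 longest. The genes of a comparison share its arrays, so these values describe the 46 genes and are given with no test.

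**Figure D3:**
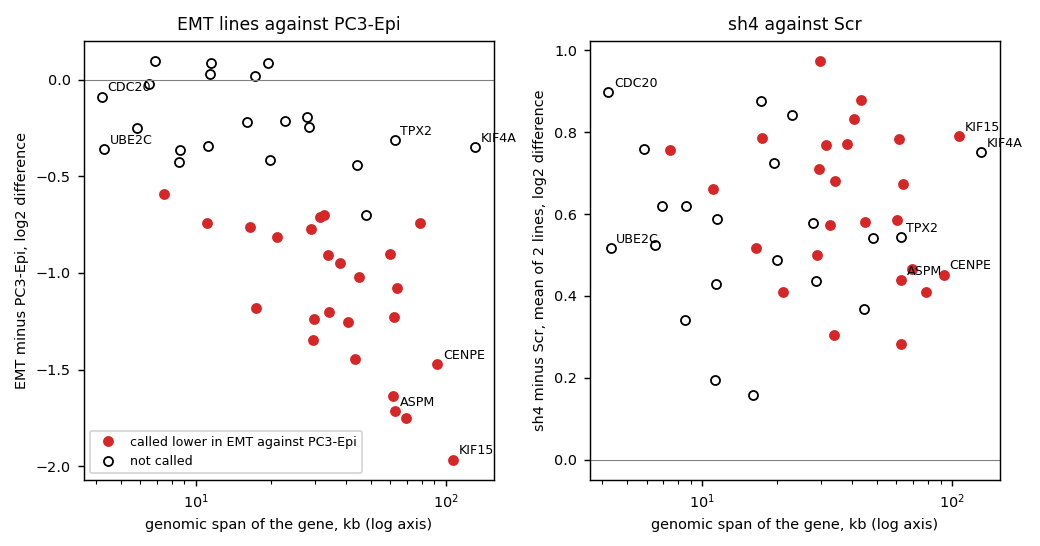
Log2 difference against the genomic span of the gene in kb (log axis) for the 46 genes, EMT minus PC3-Epi on the left and the mean of sh4 minus Scr over both lines on the right; filled points are the 25 genes called lower in the EMT lines. On the left Spearman's rho was -0.65, with CDC20 at -0.09 at the shortest span and KIF4A at -0.35 at the longest. KIF15 is the lowest point there, at -1.97, and on the right Spearman's rho was -0.03.

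Genes that work beside these 46 were counted in lists drawn up by function. Of 76 other mitotic genes tested, 20 were lower and 2 were higher, with a median of -0.25. The lower ones included GAS2L3, which links microtubules and actin (-1.45 ± 0.16, adjusted p = 0.00359), the kinetochore subunit CENPK (-1.28 ± 0.19, adjusted p = 0.00872) and CEP152, a scaffold of centriole duplication (-1.25 ± 0.20, adjusted p = 0.0106). ESPL1, the protease separase that cuts cohesin, was higher (0.65 ± 0.18, adjusted p = 0.0412), and so was TROAP (0.65 ± 0.15, adjusted p = 0.0257). Condensin and cohesin, the ring complexes that fold and hold chromatids, had 10 of 18 genes lower, 0 higher and a median of -0.78, led by the condensin subunit SMC2 (-1.62 ± 0.19, adjusted p = 0.00413) and the cohesin loader NIPBL (-1.53 ± 0.17, adjusted p = 0.00384). The subunits of the anaphase-promoting complex itself had 2 of 14 lower, ANAPC4 (-0.87) and CDC26 (-0.64), and a median of 0.03. Of 44 genes of DNA replication and the step into S phase, 6 were lower and 1 was higher, with a median of -0.08; MCM10, which helps start replication, fell by 1.43 ± 0.15 (adjusted p = 0.00285), and TYMS, thymidylate synthase, rose by 0.51 ± 0.14 (adjusted p = 0.0396). The share of genes lower was thus 54.3% for the 46 genes, 55.6% for condensin and cohesin, 26.3% for the other mitotic genes and 13.6% for the replication genes, against 15.4% of all genes; the differences between these shares were not tested.

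The sh4 cells were set against the Scr cells of the same line to ask what a knockdown of ZEB1 does to these transcripts. All 46 genes had a mean difference above 0, as did 54.3% of all genes tested (45.7% lay below 0), with a median of 0.58, against 0.02 over all genes. No gene passed: limma on the 4 transduced arrays with the line as a block called 0 of 16661 genes (0%; smallest adjusted p 0.0512), and 2499 genes had an unadjusted p under 0.05. Among the 46 genes 26 had an unadjusted p under 0.05 and a positive difference, where 7.95% of all genes did, and 0 had one and a negative difference, where 7.05% did. In both lines, 42 of the 46 genes lay higher in the sh4 cells, where 35.1% of all genes did, and 0 were 2-fold or more higher in both, where 0.276% of all genes were. In PC3-EMT14 the 46 differences ran from 0.02 to 1.39 with a median of 0.96, and 19 were 2-fold or more higher, where 1.12% of all genes were, while in PC3-EMT1 they ran from -0.33 to 0.68 with a median of 0.28, and 0 were 2-fold higher, where 0.408% of all genes were; the difference between the lines was not tested.

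Both lines' values are given below in the order PC3-EMT1, PC3-EMT14, and the mean differences are sh4 minus Scr with the limma standard error. MKI67, which coats mitotic chromosomes, was 10.24 and 10.42 in the sh4 cells, against 9.65 and 9.06 in the Scr cells, the largest mean difference of the 46, at 0.97 ± 0.22 (adjusted p = 0.279). CDC20, which activates the anaphase-promoting complex, had 11.42 and 11.44 in the sh4 cells, against 10.86 and 10.20 in the Scr cells, a mean difference of 0.90 ± 0.20 (adjusted p = 0.277). CDCA8, a passenger complex subunit, had 9.84 and 9.79 in the sh4 cells, against 9.16 and 8.72 in the Scr cells, and the smallest p of the 46, at 0.88 ± 0.14 (adjusted p = 0.253). CDC20 and CDCA8 were among the genes that did not pass in the EMT lines. With the untransduced PC3-EMT1 and PC3-EMT14 arrays added to the fit and the line as a block, only CDCA8 of the 46 passed (adjusted p = 0.0342). The fit shared a gene's line difference and variance across the untransduced and transduced sets, which had been scaled apart. That limma fit called 196 of 16662 genes over the whole array.

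The genes with the largest falls in the EMT lines had these levels after the knockdown. KIF15 had 8.78 and 8.43 in the sh4 cells, against 8.23 and 7.40 in the Scr cells, a mean difference of 0.79 ± 0.16 (adjusted p = 0.266). KIF14 had 9.84 and 9.65 in the sh4 cells, against 9.58 and 8.97 in the Scr cells. ASPM had 9.04 and 8.95 in the sh4 cells, against 8.91 and 8.20 in the Scr cells. In all 3, PC3-EMT14-Scr was the lowest of the 4 arrays and the other 3 arrays lay closer together. CENPF had 10.26 and 10.16 in the sh4 cells, against 9.80 and 9.06 in the Scr cells. CENPE had 9.71 and 9.51 in the sh4 cells, against 9.63 and 8.68 in the Scr cells. DLGAP5 had 10.10 and 10.57 in the sh4 cells, against 9.63 and 9.28 in the Scr cells. In PC3-EMT1 the sh4 value was 0.08 above Scr in CENPE, 0.46 above it in CENPF and 0.47 above it in DLGAP5.

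KIF23, the centralspindlin motor, had 8.74 and 8.67 in the sh4 cells, against 8.52 and 7.53 in the Scr cells. KIF11 had 8.64 and 8.88 in the sh4 cells, against 8.71 and 8.24 in the Scr cells. NEK2 had 10.12 and 9.91 in the sh4 cells, against 9.66 and 8.80 in the Scr cells. KIF11 differed from the others in that PC3-EMT1 had a lower value with sh4 than with Scr. AURKA had 11.73 and 11.98 in the sh4 cells, against 11.23 and 10.81 in the Scr cells. BUB1 had 9.36 and 9.43 in the sh4 cells, against 8.88 and 8.24 in the Scr cells. TTK had 9.15 and 9.34 in the sh4 cells, against 8.94 and 8.01 in the Scr cells. AURKA, BUB1 and TTK were higher with sh4 in both lines, TTK by 1.33 in PC3-EMT14 and by 0.21 in PC3-EMT1. BUB1B, the checkpoint inhibitor, had 11.04 and 10.92 in the sh4 cells, against 10.77 and 10.02 in the Scr cells.

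Among the cyclins, CCNA2 had 9.18 and 9.53 in the sh4 cells, against 9.06 and 8.14 in the Scr cells, with the largest difference of any of the 46 genes in PC3-EMT14, 1.39. CCNB1 had 10.87 and 10.58 in the sh4 cells, against 10.54 and 9.58 in the Scr cells. CDK1 had 12.25 and 12.43 in the sh4 cells, against 12.26 and 11.39 in the Scr cells. In CDK1 the PC3-EMT1 difference was -0.01, and only the PC3-EMT14 pair lay higher with sh4. The 3 subunits of the NDC80 complex differed likewise between the lines. NDC80 had 9.01 and 9.18 in the sh4 cells, against 8.81 and 8.21 in the Scr cells. NUF2 had 9.41 and 9.27 in the sh4 cells, against 9.31 and 8.77 in the Scr cells. SPC25 had 7.79 and 7.81 in the sh4 cells, against 7.76 and 6.85 in the Scr cells. SPC25 differed by 0.03 between sh4 and Scr in PC3-EMT1 and by 0.97 in PC3-EMT14.

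TOP2A, which untangles chromatids, had 10.77 and 11.00 in the sh4 cells, against 10.51 and 9.85 in the Scr cells. ANLN had 10.25 and 10.66 in the sh4 cells, against 10.10 and 9.46 in the Scr cells. ECT2 had 11.00 and 10.88 in the sh4 cells, against 10.93 and 10.13 in the Scr cells. All 3 were higher with sh4 in both lines, and 2-fold or more in PC3-EMT14 for TOP2A and ANLN. CEP55 had 9.96 and 10.12 in the sh4 cells, against 9.79 and 9.15 in the Scr cells. HMMR had 11.15 and 11.21 in the sh4 cells, against 10.70 and 10.12 in the Scr cells. CKAP2 had 9.34 and 9.39 in the sh4 cells, against 9.17 and 8.74 in the Scr cells. The scale of the difference was again larger in PC3-EMT14 than in PC3-EMT1. UBE2C had 12.03 and 11.89 in the sh4 cells, against 11.69 and 11.20 in the Scr cells. PTTG1 had 12.54 and 12.57 in the sh4 cells, against 12.24 and 11.63 in the Scr cells. AURKB and BIRC5 of the passenger complex, given next, lay higher with sh4 in both lines as well. AURKB had 8.88 and 8.94 in the sh4 cells, against 8.40 and 7.91 in the Scr cells. BIRC5 had 11.93 and 12.25 in the sh4 cells, against 11.87 and 11.45 in the Scr cells. The 4 exceptions to a higher value in both lines were CDK1, MAD2L1, KIF11 and RACGAP1, in all of which the PC3-EMT1 difference was below 0. CENPA and BUB3 differed more in PC3-EMT1 (0.55 and 0.29) than in PC3-EMT14 (0.13 and 0.02), unlike the remaining 44 genes.

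**Figure D4:**
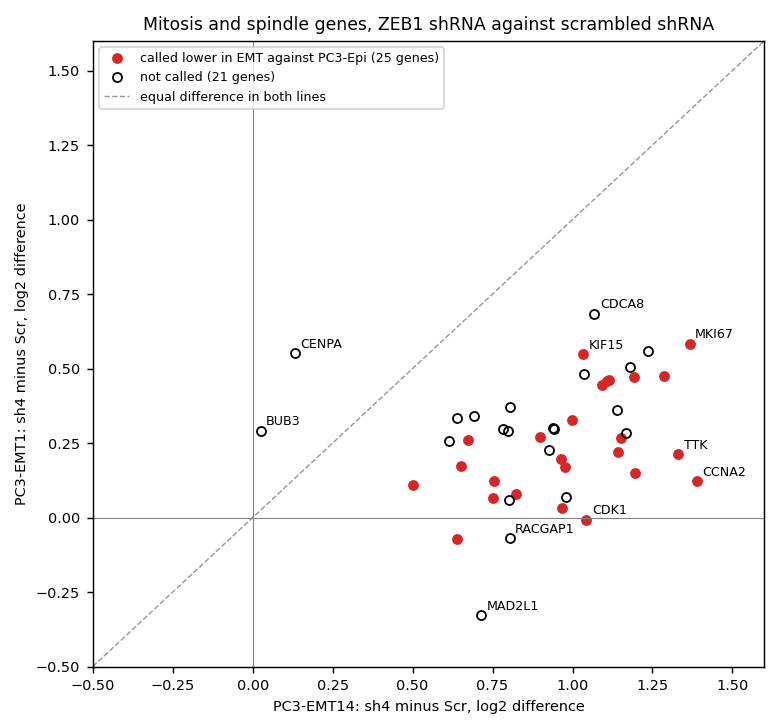
Log2 difference of sh4 minus Scr for the 46 genes, PC3-EMT14 on the x axis and PC3-EMT1 on the y axis, with filled points for the 25 genes called lower in the EMT lines and a dashed line where the lines would be equal. All genes except CENPA and BUB3 lie below the dashed line, and 4 genes lie below 0 in PC3-EMT1.

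PC3-EMT14-Scr, the lowest array for all 46 genes, was also the lowest in 43 of 44 genes of DNA replication and the step into S phase. The median gap from it to the next lowest array was 0.64 over the 46 genes. With 1 array for each line and shRNA, an effect of sh4 in PC3-EMT14 and a property of that Scr culture or array cannot be told apart. The 3′ to 5′ difference of ACTB was 1.44 and 2.22 in the sh4 cells, against 1.68 and 1.42 in the Scr cells, and that of GAPDH was -0.15 and 0.18, against -0.17 and -0.19; their part in these differences was not tested.

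The 25 genes lower in the EMT lines and the 21 others can be set side by side in the knockdown, since the 2 comparisons share no array. The 25 genes had a median sh4 minus Scr difference of 0.66, with 23 higher in both lines, and the 21 others had 0.54, with 19 higher in both lines. Over the 1823 genes lower in the EMT lines and tested in both comparisons, 60.1% had a mean above 0 with sh4, 40.9% were higher in both lines and the median was 0.06. KIF15 fell by 1.97 in the EMT lines and had 0.79 with sh4, whereas CDC20 had -0.09 in the EMT lines and 0.90 with sh4. Other lists gave 72 of 76 other mitotic genes above 0 with a median of 0.41, and 43 of 44 replication genes above 0 with a median of 0.46; 0 genes of either passed in limma, and 28 and 12 had an unadjusted p under 0.05 and a positive difference, where 7.95% of all genes did.

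PC3-EMT1 was set against PC3-EMT14 within each condition to see how far these genes vary between lines under the same condition. Of the 46 genes 0 passed in limma with the condition as a block, where 1.82% of 16662 genes did, and 9 had an unadjusted p under 0.05 and were higher in PC3-EMT1, where 6.35% of all genes were, with 0 lower. The median difference was 0.25, with 44 of 46 genes above 0, where 52.7% of all genes were, and 18 genes were higher in PC3-EMT1 in all 3 conditions, where 19% of all genes were. KIF14 had the smallest adjusted p, 0.0955, with a difference of 0.48 ± 0.12, made up of 0.20 with sh4, 0.61 with Scr and 0.64 untransduced. The Scr pair, which holds the PC3-EMT14-Scr array that was the lowest transduced array in all 46 genes, carried most of the shift. Medians were -0.02 with sh4, 0.65 with Scr and 0.07 untransduced. The numbers of genes higher in PC3-EMT1 were 22, 46 and 34, where 47.4%, 53.0% and 51.9% of all genes were. Without the Scr pair 28 genes were above 0 and 18 below, and 16 genes had the other sign. The median over all genes was -0.0018 in that fit. PLK1, the mitotic kinase, differed most after KIF14 in the untransduced cells (0.55), and CENPA, the centromeric histone, differed most with sh4 (0.86); both were chosen after their values were seen.

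**Figure D5:**
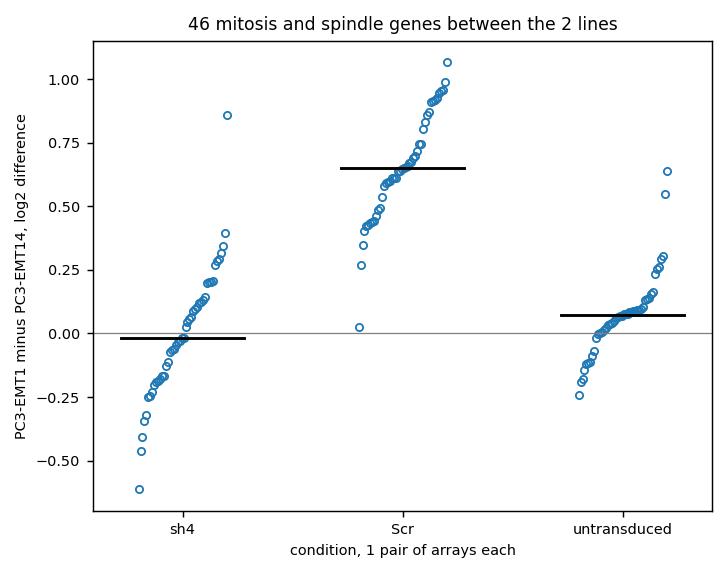
Log2 difference of PC3-EMT1 minus PC3-EMT14 for each of the 46 genes (circles, sorted within a condition) in sh4, Scr and untransduced cells, with black bars for the medians of -0.02, 0.65 and 0.07. In the Scr pair all 46 genes lie above 0, and in the sh4 pair 22 do, where 53.0% and 47.4% of all genes did.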

How the data were processed

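RNA of 8 cell samples was hybridised to GeneChip Human U133 Plus 2.0 arrays, 1 array each, from 250 ng of RNA. The authors summarised each probe set by RMA (affy package), and the deposited log2 values entered the analysis as they stand; versions and genome build are not given in the sources used here. Of 54675 probe sets, 62 were controls, 41091 had 1 gene symbol, 1801 several and 11721 none. Genes with at least 1 array of a comparison at log2 5 or above were fitted in R 4.3.3 with limma 3.58.1 (lmFit, eBayes), with Benjamini-Hochberg adjustment over all genes fitted and a threshold of 0.05. EMT against PC3-Epi used the 4 untransduced arrays (2 residual degrees of freedom, prior 3.87) and assumed that the lone PC3-Epi array varies as the EMT arrays do. The 4 transduced arrays gave sh4 against Scr, with the line as a replicate block (1 residual degree of freedom, prior 2.97). Replicate numbers are those of the lines, so arrays with the same number come from the same cell line and are paired; the PC3-EMT1 minus PC3-EMT14 differences of the Scr and sh4 pairs correlated over 16662 genes (r = 0.48). PC3-EMT1 against PC3-EMT14 used 6 arrays with the condition as a block. The number of arrays limits the precision. The genes and gene lists were chosen with earlier results of these data known. Values by array are given for genes called in a comparison and for the 2 genes of each role group with the largest difference in EMT against PC3-Epi; transduced values of CDC20 and CDCA8 were added after they were seen. Alternatives varied the filter, the probe sets of a gene, the scaling, eBayes, the block, the fold limit and the arrays included.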

Additional observations from a re-analysis of the deposited data

Results flagged for a closer look

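Of the 46 genes, 4 had sh4 minus Scr differences of opposite sign in the 2 lines. CDK1, the mitotic kinase, differed by -0.01 in PC3-EMT1 and 1.04 in PC3-EMT14, so that the PC3-EMT1 difference was -1.05 relative to that of PC3-EMT14. MAD2L1, a spindle checkpoint protein, differed by -0.33 in PC3-EMT1 and 0.71 in PC3-EMT14 (-1.04 between them). KIF11, the motor that separates spindle poles, differed by -0.07 and 0.64 in the same lines (-0.71 between them). RACGAP1, a centralspindlin subunit, differed by -0.07 and 0.80 (-0.87 between them). With 1 array per line and shRNA, none of these differences between the lines was tested.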

How the results depend on the processing

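No gene of the 46 that passed in the EMT lines changed direction under any alternative run. The count of genes lower in the EMT lines was 25 of 46, and 21 to 28 under the other filters, probe set choices, scalings and eBayes with a trend, with 0 higher throughout; the 21 came with 32 added on the linear scale, where 19 of the 25 remained. Leaving out 1 EMT line gave 17 to 26 genes lower, lowest without PC3-EMT14, where genes called over the whole array numbered 1841, against 3496 with all lines. The median difference moved to -0.53 when a gene's probe sets were averaged (45 genes tested). At a limit of 1.5-fold, 23 genes were lower in every EMT line, against 9 at 2-fold, and 1 gene was higher with sh4 in both lines, against 0. The shares of all genes at the 1.5-fold limit were not counted, so these counts have no background beside them. For sh4 against Scr, 0 of the 46 genes passed with the replicate block, with a median of 0.58, and 0 without it. With 6 arrays and the replicate block, 1 of the 46 genes passed in limma, CDCA8 (0.88, adjusted p = 0.0342, and 0.119 to 0.385 under the other alternatives). These 6 arrays join the untransduced and transduced sets, which had been scaled apart. Over the whole array 196 of 16662 genes passed in that fit, against 0 of 16661 with 4 arrays. That median was 0.28 to 0.96 when 1 line was left out. In PC3-EMT1 against PC3-EMT14, 0 of the 46 genes passed under any alternative run, and without the Scr pair 16 had the other sign. The causes were not tested. The number of arrays, with PC3-Epi on 1, limits what these comparisons can show.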

Other observations

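Regulators of late cell cycle transcription were tested as a list of 20 genes in the EMT lines, and 4 were lower and 2 higher (limma), with a median of -0.17; these shares, 20% and 10%, lie near the 15.4% and 13.9% of all genes. RBL1, the pocket protein p107, which holds cell cycle genes silent together with E2F factors and MuvB, fell by 1.77 ± 0.23 (adjusted p = 0.00556) in the EMT lines. E2F8, a repressor of E2F targets, fell by 1.16 ± 0.14 (adjusted p = 0.00432), and LIN9, a subunit of the MuvB core, fell by 0.79 ± 0.15 (adjusted p = 0.0150). LIN37, another MuvB subunit, rose by 0.65 ± 0.15 (adjusted p = 0.0277), and TFDP2, a partner of E2F factors, rose by 0.57 ± 0.14 (adjusted p = 0.0322). With sh4, 0 of the 20 passed and 10 lay above 0, where 54.3% of all genes did (1 at an unadjusted p under 0.05), with a median of 0.04.

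Inhibitors of cyclin-dependent kinases and genes of quiescence numbered 10 tested, of which 2 were lower and 1 was higher in the EMT lines, again near the 15.4% and 13.9% of all genes. CDKN1A, the inhibitor p21, rose by 0.89 ± 0.21 (adjusted p = 0.0297), whereas CDKN1B, the inhibitor p27, fell by 0.97 ± 0.14 (adjusted p = 0.00743). CCNG2, a cyclin found in resting cells, fell by 1.55 ± 0.15 (adjusted p = 0.00240). With sh4, 0 of the 10 passed, 9 lay below 0, where 45.7% of all genes did (3 at an unadjusted p under 0.05, where 7.05% did), and the median was -0.17, where the 46 mitosis and spindle genes had 0.58.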
